A study of Capra hircus with 10 samples.

Results

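Among the 1327 goat circRNAs of this series, 257 (19.4%) had at least 1 miRNA predicted to pair with their junction sequence and not with their plain sequence. The authors' list of predicted miRNA sites names circRNAs both plainly and with a suffix for a junction sequence. From these names, the plain sequence was taken here as the spliced sequence opened at the junction. The junction sequence was taken as a stretch that spans the join of its last and first bases. A circRNA was taken as a member when at least 1 miRNA was paired with its junction sequence and not with its plain sequence, and such a miRNA is called junction-only here. The rule used names in the list of predicted pairs alone, so abundance, host genes and the difference between the cell stages played no part in the choice. The pairs are predictions without scores or positions, and no miRNA level was analysed here.

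The libraries were made from RNA depleted of ribosomal RNA, with 5 of each stage of goat fat cells from muscle. IMPA1 to IMPA5 are preadipocytes at day 0 of induction, and IMA1 to IMA5 are adipocytes at day 3. The cells were wild type (WT) and came from fat within the longissimus dorsi muscle of 3 male Jianzhou goats, 7 days old. IMA were collected after the growth medium had been replaced by an inducing medium with serum and 50 µmol/L oleic acid, and IMPA at the time of the change, although the treatment label reads the same for both groups. Which goat gave which library was not stated in the sources used here, and 5 libraries from 3 goats cannot all be separate animals, so SDs and p-values describe libraries. In bulk RNA, fewer cells of a type and less RNA per cell cannot be told apart.

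A circRNA is made when a splice donor is joined to a splice acceptor that lies upstream of it, so that one or more exons close into a ring without free ends. The joined bases exist next to each other in the ring and not in the linear mRNA of the same gene, which makes the junction the part of the sequence that is specific to the circle. A miRNA guides Argonaute to a transcript mainly through its seed, the bases near its 5′ end, which pair with the 3′ part of the target site. A circRNA that carries such sites can hold miRNAs away from their mRNA targets, and several miRNAs named below are known to act in the formation of fat cells.

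The list held 15242 pairs, of which 13005 were with plain sequences and 2237 with junction sequences. Of the junction pairs, 1906 had the same miRNA paired with the plain sequence as well, and the remaining 331 (14.8%) were junction-only. They involved 186 of the 410 miRNAs that had any junction pair, and 435 miRNAs were listed in all. A single junction-only miRNA was found for 202 members, while 42 members had 2, 11 had 3, 1 had 5 and 1 had 7. Nearly all members also carried ordinary sites, with a median of 9 miRNAs paired with the plain sequence, the same median as over all 1327 circRNAs, and 2 members had no such pair. In 84 members every miRNA paired with the junction was junction-only.

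Members named by the miRNA's number alone gave almost the same set. With a miRNA counted only where no miRNA of the same number paired with the plain sequence, 249 of the 257 circRNAs remained. In 194 members the listed exons reached both ends of the circle, whereas in 63 (24.5%, against 21.6% of all circRNAs) they left at least 1 end outside any listed feature. For those 63, which include the circRNAs of EEFSEC, FHOD3, QKI, CENPJ, DCP2, GDI2, VCAN, ADAMTS9, SMAD4 and EBF3 described below, the listed exons do not say which bases were joined.

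**Figure D1:**
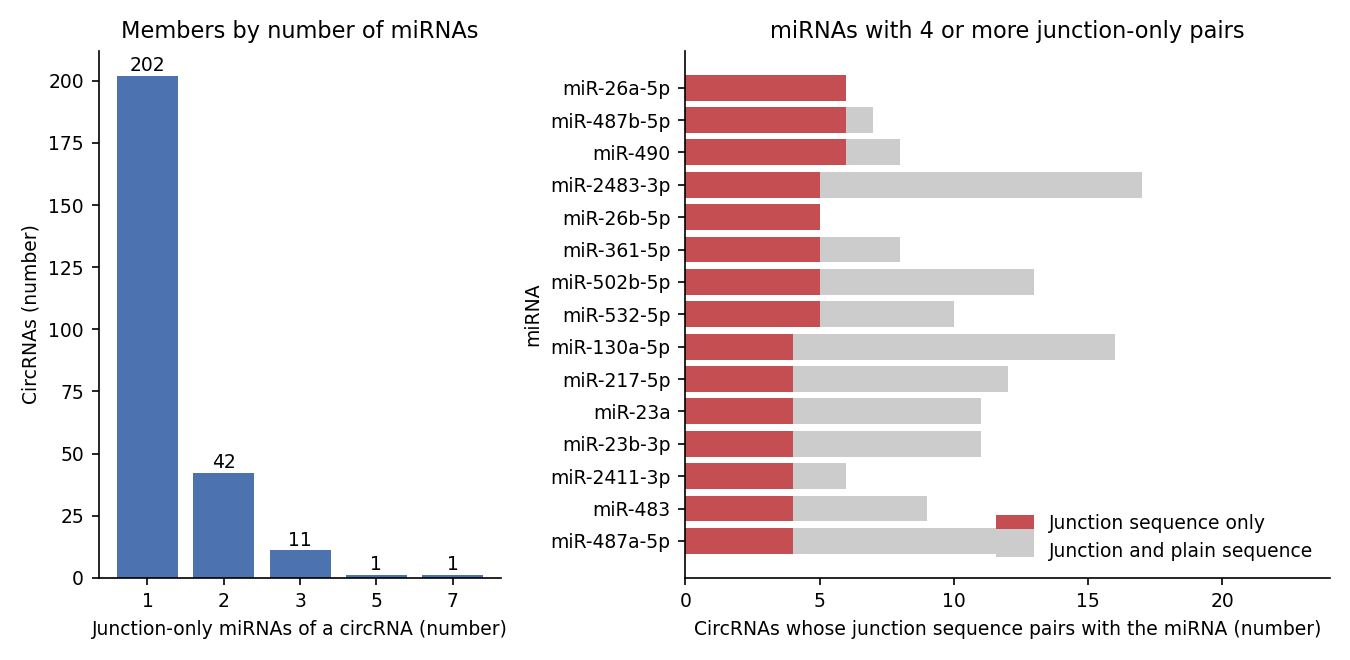
Left, number of member circRNAs (vertical axis) by their number of junction-only miRNAs (horizontal axis), with 202 of 257 at 1. Right, for the 15 miRNAs with 4 or more junction-only pairs, the number of circRNAs whose junction sequence pairs with the miRNA, divided into those without (red) and with (grey) a pair in the plain sequence. The bars of miR-26a-5p and miR-26b-5p are red throughout.

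miR-26a-5p, miR-487b-5p and miR-490 had the most junction-only circRNAs, with 6 each. Those of miR-26a-5p came from 4 host genes and those of miR-487b-5p and miR-490 from 6 each. The 5 of miR-26b-5p came from 3, as several miR-26 circles are of MKLN1, described below. miR-26a-5p stood apart from most miRNAs in that all 6 of its junction pairs were junction-only, as were all 5 of miR-26b-5p, although these miRNAs paired with the plain sequence of 21 and 23 other circRNAs. Of the 362 miRNAs with 2 or more junction pairs, 6 had junction-only pairs throughout, the other 4 being miR-21-5p, miR-2483-5p, miR-382-3p and miR-425-3p with 2 each. miR-487b-5p was junction-only in 6 of 7 junction pairs and miR-490 in 6 of 8.

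The next miRNAs had 5 junction-only circRNAs each, out of 17 junction pairs for miR-2483-3p, 13 for miR-502b-5p, 10 for miR-532-5p and 8 for miR-361-5p. The 5 of miR-361-5p came from 3 host genes. Another 7 miRNAs had 4 each, namely miR-130a-5p, miR-217-5p, miR-23a, miR-23b-3p, miR-2411-3p, miR-483 and miR-487a-5p. At the other end, 101 miRNAs had 1 junction-only circRNA and 51 had 2.

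miRNAs of one family often fell on the same junction. miR-26a-5p and miR-26b-5p, which share their seed, had 5 members in common. miR-23a and miR-23b-3p shared 4 members and miR-200c and miR-429, of the miR-200 family, shared 3. Of the 55 members with several junction-only miRNAs, 25 had miRNAs of 1 number only, so that for them a single site may be counted under several names, and 30 had miRNAs of different numbers.

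The circRNA with the most junction-only miRNAs was circ_0003673 of MAPK9, the stress-activated kinase JNK2 (chromosome 7, 107820901 to 107829759, minus strand, 3 exons, 328 nt). Its 7 were miR-103-3p, miR-107-3p, miR-15b-5p, miR-16a-5p, miR-16b-5p, miR-195-5p and miR-424-5p, out of 8 miRNAs paired with its junction. The second was circ_0010357 of MAPK14, the kinase p38α (chromosome 23, 38716336 to 38722807, minus strand, 2 exons, 189 nt), whose 5 were miR-15b-5p, miR-16a-5p, miR-16b-5p, miR-195-5p and miR-424-5p. Both circles thus carried these 5 miRNAs of the miR-15 and miR-16 family at the junction. They were the only 2 circRNAs with a junction-only pair for miR-15b-5p, miR-16a-5p, miR-16b-5p or miR-195-5p. However, miR-15a-5p of the same family had 13 junction pairs, of which 0 were junction-only. miR-15a-5p had 92 plain pairs, against 90 each for miR-15b-5p, miR-16a-5p, miR-16b-5p and miR-195-5p. The family may therefore pair with the plain sequence of these circles under the name miR-15a-5p. In that case the family's site would not be particular to the junction. Which plain sequences miR-15a-5p pairs with was not examined circle by circle. Both host genes encode MAP kinases, enzymes that pass stress signals to the nucleus.

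Of the 11 members with 3 junction-only miRNAs, circ_0005177 of DCP2, an mRNA decapping enzyme, and circ_0003676 of CHD1, a chromatin remodeller, carried miR-199a-3p, miR-199b-3p and miR-199c-3p. circ_0010138 of SMARCC1, a subunit of the SWI/SNF complex, and circ_0010593 of PIAS2 carried miR-200b, miR-200c and miR-429. circ_0003788 of VCAN, the matrix proteoglycan versican, and circ_0007000 of GDI2, a regulator of Rab proteins, carried miR-181b-5p, miR-181c-5p and miR-181d.

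Some circRNAs of 1 host gene close at a common splice site, and their junction-only miRNAs were compared by the end they share. The table held 201 pairs of circRNAs of 1 host gene with the same splice acceptor and different donors, 88 pairs with the same donor and different acceptors, and 451 pairs with no end in common. A junction-only miRNA was shared by 11 of the 201 pairs with a common acceptor, and by 0 of the 88 pairs with a common donor and 0 of the 451 others. Sharing one requires that both circles are members, which held for 14 pairs with a common acceptor, 1 with a common donor and 13 with no common end, so the donor pairs give no measure of which end matters. For any miRNA paired with the junction, junction-only or not, 36.3% of the pairs with a common acceptor shared one, 40.9% of those with a common donor and 9 of the 451 with no common end. The 11 pairs came from 7 host genes, so they are not independent of each other, and no test was made.

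MKLN1, which encodes muskelin, gave 3 of these pairs and is described, like DDHD1, because of them, a choice made after the values were seen. Its circ_0002214, circ_0002219 and circ_0002222 share the acceptor at position 25082792 of chromosome 4, minus strand, and close onto donors 74.2, 39.2 and 18 kb downstream. miR-26a-5p and miR-26b-5p were junction-only in all 3. The circles were read about equally often, with 156, 154 and 153 junction reads over the 10 libraries, and their log2 fold changes between IMA and IMPA were 0.14, -0.20 and -0.23, none past the test (adjusted p of 0.841, 0.719 and 0.705, edgeR). The listed exons of circ_0002222 end at the acceptor exon, so its donor side is not annotated.

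DDHD1, a phospholipase gene, gave 3 more. Its circ_0005385, circ_0005386 and circ_0005388 start at position 37470972 of chromosome 10, plus strand, and have 48, 43 and 74 junction reads. miR-361-5p was junction-only in all 3, and miR-374a-3p and miR-374b-3p in circ_0005385 and circ_0005388. The other shared junction-only miRNAs were miR-495-3p in 2 circRNAs of AEBP2, miR-22-5p in 2 of CNTLN, miR-217-5p in 2 of EVI5, miR-16a-3p in 2 of ZNF280D and miR-2483-5p in 2 of UTP18.

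**Figure D2:**
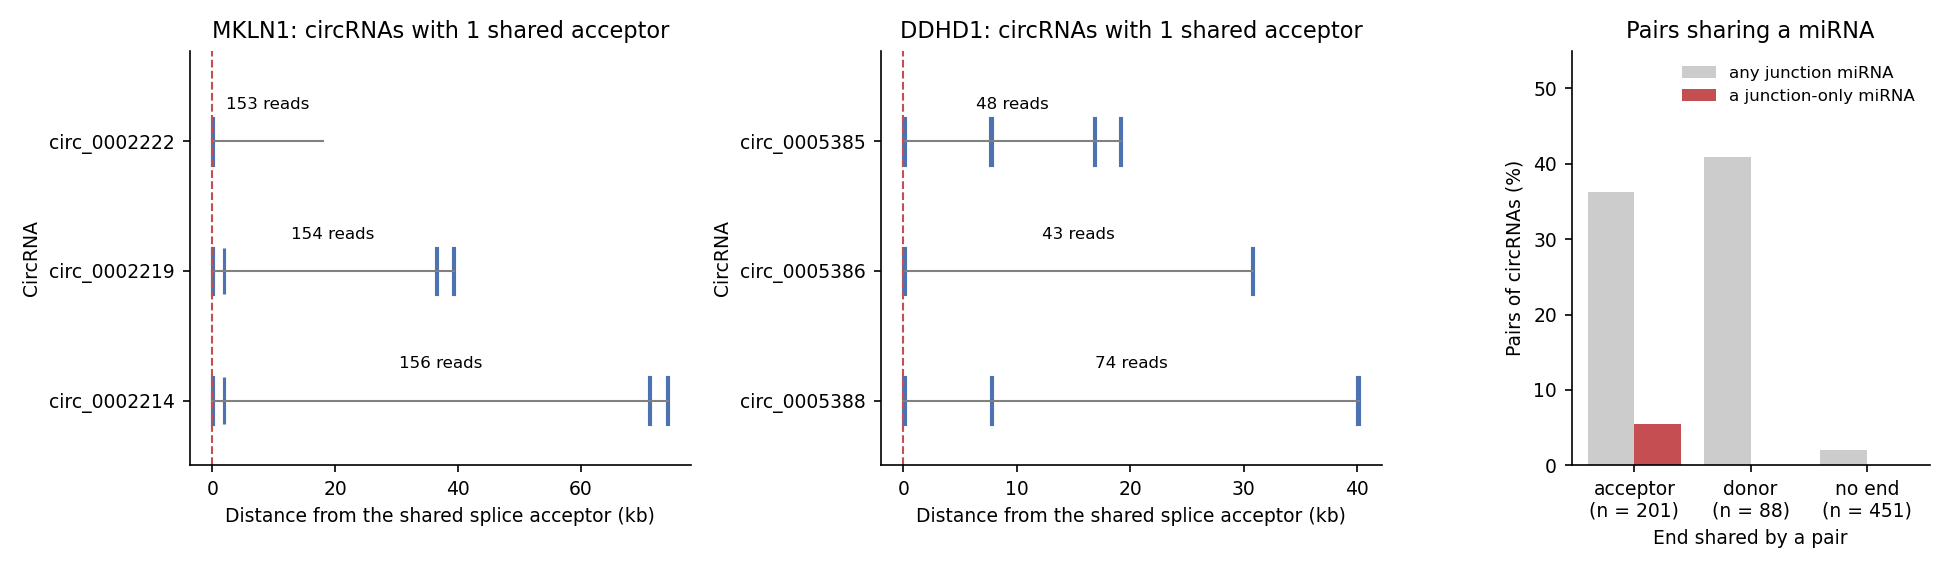
Left and middle, the MKLN1 and DDHD1 circRNAs drawn to scale as distance in kb from their shared splice acceptor (dashed line), with grey lines for the span, blue boxes for the listed exons and the junction reads summed over 10 libraries. Right, percentage of pairs of circRNAs of 1 host gene that share any miRNA paired with the junction (grey) or a junction-only miRNA (red), by the end they share, with 5.47% of the 201 acceptor pairs and none of the others in red. Both circles were members in 14 acceptor pairs, 1 donor pair and 13 others, so the donor bar had a single pair that could be red.

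A shared acceptor was not enough for both circles to be members. Of the 201 pairs with a common acceptor, 44 had 1 circle among the members and the other outside. The circle outside may still pair with the same miRNA. Across all host genes, with or without a common end, a junction-only miRNA of a member had no pair at all in 276 combinations with another circRNA of the same gene, was junction-only there too in 32 and paired with the other's plain sequence in 15. An example of different miRNAs on 1 acceptor is UBE3A, the ubiquitin ligase of Angelman syndrome, whose circ_0009593 and circ_0009591 share an acceptor and were paired at the junction alone with miR-543-3p and miR-487b-5p, respectively.

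In their make-up the members were like the rest of the table. Their median spliced length was 314 nt (59 to 672), against 320 nt over all circRNAs, and 249 of the 257 were exonic, 5 intronic and 3 intergenic. Circles of 1 listed exon or intron made up 16.7% of members and 15.5% of all. Of the circRNAs of 30 to 254 nt 22.5% were members, and of those of 389 to 672 nt 17.0%, with 18.3% and 19.7% in the classes between. The members came from 236 host genes, 14 of which gave several, with 4 from DOCK1, a guanine nucleotide exchange factor, and 3 each from CNTLN, DDHD1 and MKLN1.

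Junction reads numbered 11421 to 15553 per IMPA library and 9622 to 12499 per IMA library, and members took 17.6 to 18.6% of them in IMPA and 17.4 to 18.8% in IMA. By the paper's account, a smaller share of clean reads mapped to the genome in every IMA library than in every IMPA library. Effects of stage and of this difference between libraries cannot be told apart. TPM here is the authors' unit, junction reads per 1000000 junction reads of a library, without a term for length, so that 1 read was worth 64.3 to 104 TPM. The median member had 54 reads over the 10 libraries, against 55 for all circRNAs, and 129 members were read in every library. Of the members' counts above 0, 69.3% were under 10, so that for most of them only large differences were detectable.

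The most abundant member was circ_0009593 of UBE3A (chromosome 21, 1519363 to 1525199, minus strand, 5 exons, 558 nt), at rank 5 of the 1327 circRNAs in mean TPM. It had 160, 132, 161, 121 and 171 reads in IMPA1 to IMPA5 and 134, 96, 146, 130 and 95 in IMA1 to IMA5, or 10984 ± 665 and 11207 ± 1781 TPM (mean ± SD, n = 5 each). The groups overlapped. circ_0005511 of USP3, a deubiquitinase of histones, was rank 11 with miR-144-3p at the junction, at 5997 ± 270 TPM in IMPA and 8307 ± 856 in IMA. Its reads were 88, 71, 84, 75 and 87 against 78, 83, 117, 83 and 85, and in TPM the groups did not overlap, yet its log2 fold change of 0.39 ± 0.12 (SE) missed the threshold (edgeR adjusted p = 0.104). That call was gained with uniquely mapped reads as library sizes (0.64, adjusted p = 0.00215) and with DESeq2's Wald test (0.43, adjusted p = 0.00948).

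The others of the 5 most abundant members were circ_0010189 of EEFSEC, described below, circ_0003306 of ZCCHC4 and circ_0007894 of AIDA. circ_0003306 of ZCCHC4, an RNA methyltransferase gene, carried miR-26a-5p and miR-26b-5p at the junction at 3620 ± 662 TPM in IMPA and 3924 ± 1168 in IMA, far above the 25 reads in all of the ITGAV circle with the same miRNAs. circ_0007894 of AIDA carried miR-425-3p, at 3172 ± 308 and 3589 ± 464 TPM. Neither differed by more than the spread between libraries (log2 fold changes 0.05 ± 0.17 and 0.11 ± 0.15, adjusted p of 0.922 and 0.777).

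Between IMA and IMPA the junction reads of 2 of the 253 members tested changed at an adjusted p under 0.01, 1 higher and 1 lower (edgeR's quasi-likelihood test, Benjamini-Hochberg over all 1294 circRNAs tested). Over all circRNAs tested, 0.927% passed, 0.464% in each direction, and among members 0.791%, so the members' share was near the background. At an adjusted p under 0.05, 3 members passed (1.19%, against 1.47% of all). At an unadjusted p under 0.05 it was 27 members (10.7%) against 13.3% of all, with 11 higher (4.35%, against 4.79%) and 16 lower (6.32%, against 8.50%). The median log2 fold change was -0.05 in members and -0.07 over all circRNAs tested. Groups did not overlap in TPM for 11 of the members tested, or 4.35%, against 4.25% of all.

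The member that fell was circ_0010189 of EEFSEC, the elongation factor that brings selenocysteine to the ribosome (chromosome 22, 59343961 to 59345009, minus strand, 165 nt of 1 exon). It was paired at the junction alone with miR-28-5p and miR-708-5p, which belong to 1 family. Its reads were 86, 73, 90, 73 and 112 in IMPA1 to IMPA5 and 33, 0, 0, 33 and 25 in IMA1 to IMA5. Every IMA library was below every IMPA library, and within IMA 3 libraries had 25 to 33 reads and the other two, IMA2 and IMA3, had none. The means were 6376 ± 492 TPM in IMPA and 1767 ± 1650 in IMA, and the log2 fold change was -1.87 ± 0.31 (adjusted p = 0.000206).

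Without IMA2 and IMA3 the log2 fold change was -1.14 (adjusted p = 3.38e-05), and with DESeq2's Wald test on all libraries it was -1.89 with an adjusted p of 0.277. A count of 0 where the other libraries of the group had a mean of at least 10 reads was seen for 6 members, 7 times in all. The longer EEFSEC circle with the same donor, circ_0010190, had 17, 21, 12, 11 and 15 reads in IMPA and 8, 5, 0, 7 and 10 in IMA. It is no member, and its difference missed the threshold (-0.89 ± 0.32, adjusted p = 0.176).

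The member that rose was circ_0005870 of COL5A1, which encodes a chain of type V collagen (chromosome 11, 105098461 to 105103883, minus strand, 5 exons, 432 nt). miR-1249 was its junction-only miRNA, beside 11 miRNAs paired with its plain sequence. It had 0, 0, 3, 0 and 0 reads in IMPA1 to IMPA5 and 9, 9, 6, 8 and 6 in IMA1 to IMA5. No IMA library fell to the level of any IMPA library. Against a floor of 3 reads per library the circle was at least 3.04-fold higher in IMA, and the fitted log2 fold change was 2.03 ± 0.40 (adjusted p = 0.00211), a value that rests on few reads. The adjusted p was 0.0130 without IMPA1 (1.94) and 0.0138 without IMPA5 (1.92).

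circ_0000946 of ITGAV, the αv integrin chain (chromosome 2, 126796662 to 126798108, plus strand, 3 exons, 309 nt), carried miR-26a-5p and miR-26b-5p at the junction alone. It had 7, 3, 10, 2 and 3 reads in IMPA and 0 in each of the 5 IMA libraries. The groups did not overlap, and the circle was at least 1.37-fold lower in IMA against the floor. Its fitted log2 fold change of -1.72 ± 0.40 passed at 0.05 but not at 0.01 (adjusted p = 0.0121), the call at 0.01 was gained with limma voom (-3.00, adjusted p = 0.00514) and with clean reads as library sizes (-1.85, adjusted p = 0.00419), and without IMA2 and IMA3 the adjusted p was 0.0922. With an IMPA library left out the circle was listed in too few libraries to be tested. The most abundant ITGAV circle, circ_0000943, is no member and was read 30 to 35 times in IMPA libraries and 26 to 48 times in IMA libraries. Another circle, circ_0000948, also no member, had 0 reads in every IMPA library and 2, 2, 3, 2 and 3 in IMA, without passing the test (1.21 ± 0.34, adjusted p = 0.0642).

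Sequence was at hand for the ITGAV circle as the qRT-PCR primers that the study designed for it, given here 5′ to 3′ because they identify the circle.
circ_0000946 forward: gacagaaaaccaaacccgcc
circ_0000946 reverse: aaggtcagagggttgtcgtc
Both primers are 20 nt long with 55% G and C.

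The circles of COL5A1 and ITGAV and another 2 members were among the 16 circRNAs that the study called differential on these same libraries. Their direction here is therefore no independent evidence. The EEFSEC circle was not among the 16. By qRT-PCR the study reports the COL5A1 circle as higher and the ITGAV circle as lower. The other 2 members follow. circ_0010443 of FHOD3, a formin of striated muscle (chromosome 24, 20812598 to 20853568, minus strand), with miR-483 at the junction, had 0, 0, 2, 2 and 0 reads in IMPA and 6, 5, 3, 4 and 6 in IMA. It was at least 1.92-fold higher against the floor, without passing the test (1.41 ± 0.41, adjusted p = 0.0757). circ_0009924 of STAC, an adaptor of calcium channels (chromosome 22, 10094533 to 10113699, plus strand), with miR-141 and miR-200a, had 0, 0, 3, 5 and 0 reads in IMPA and 5, 5, 5, 10 and 8 in IMA (1.42 ± 0.43, adjusted p = 0.0953). Its groups overlapped in reads, at 5.

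**Figure D3:**
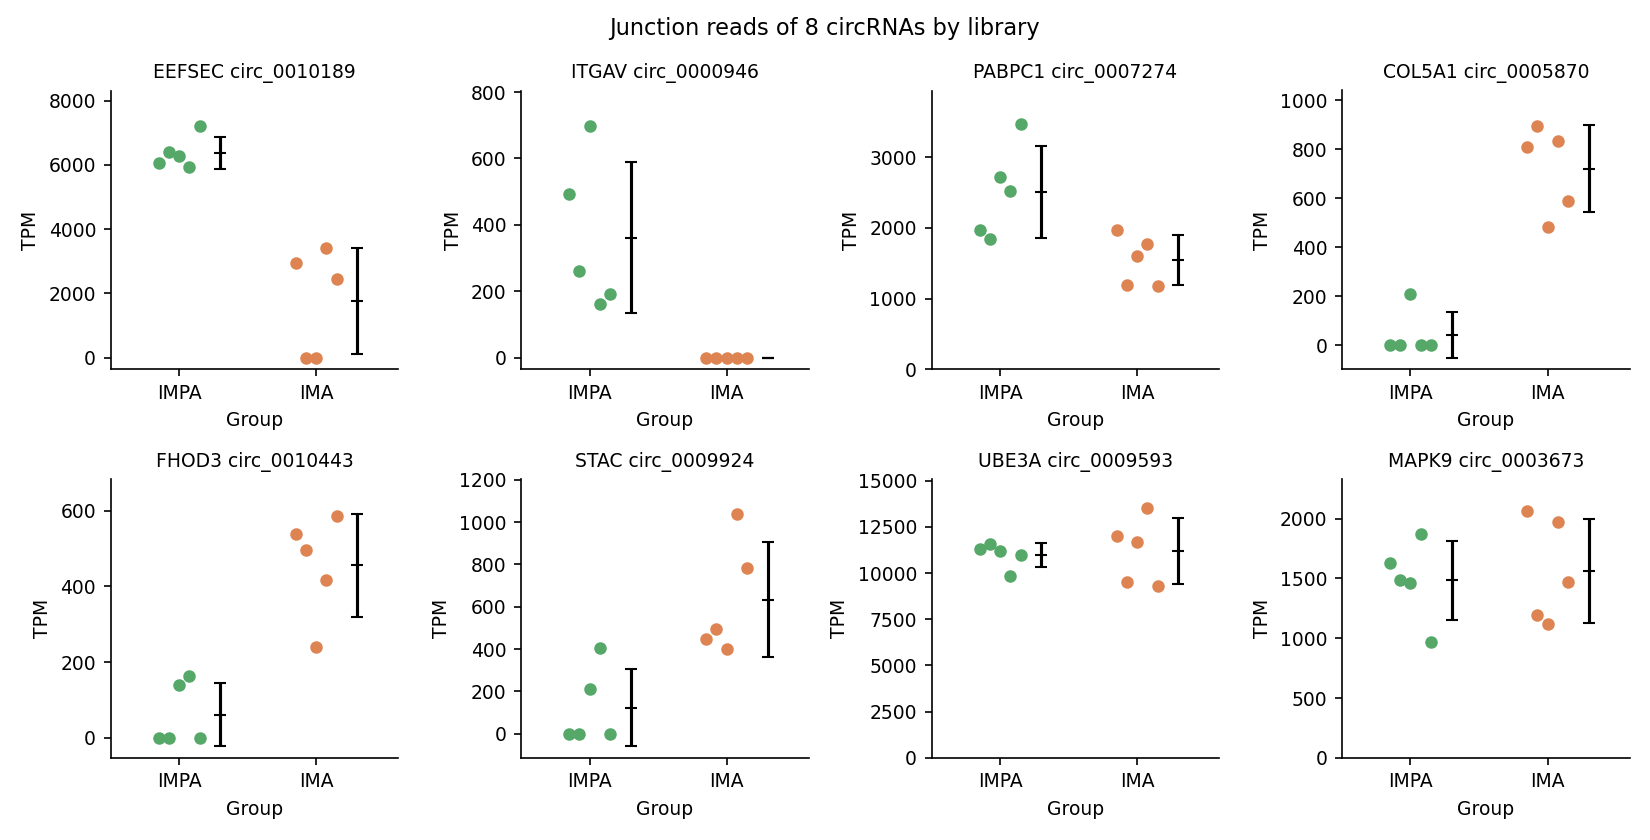
Abundance in TPM (junction reads per 1000000, vertical axis) of 8 member circRNAs in the 5 IMPA and 5 IMA libraries, with points for libraries and a black bar for the mean ± SD. EEFSEC and ITGAV lie lower and COL5A1 and FHOD3 higher in every IMA library, while UBE3A and MAPK9 overlap.

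**Figure D4:**
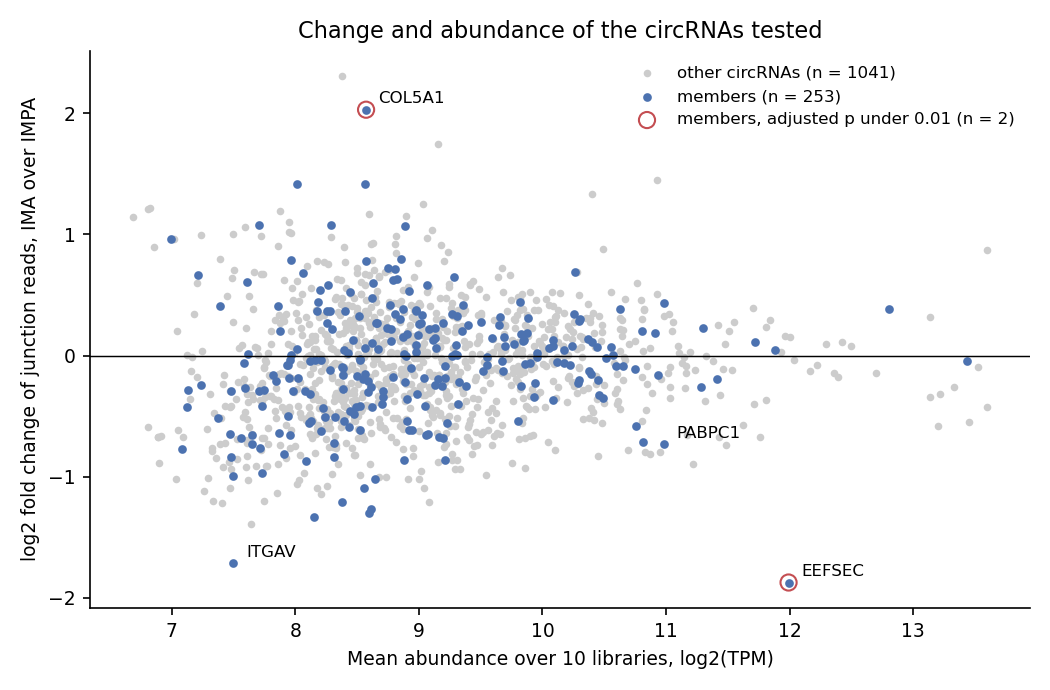
Fitted log2 fold change of junction reads, IMA over IMPA (vertical axis), against log2 mean TPM over 10 libraries (horizontal axis) for the 1294 circRNAs tested, with the 253 members in blue and the 2 past an adjusted p of 0.01 ringed. Members lie throughout the cloud, and low abundance goes with a wider spread.

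Of the members with the next smallest p-values, the 5 with lower values in IMA were circ_0007274 of PABPC1, circ_0009678 of CEMIP, circ_0006544 of CENPJ, circ_0008345 of CIT and circ_0001681 of USP1. circ_0007274 of PABPC1, the poly(A) binding protein (chromosome 14, 18573506 to 18573926, minus strand), with miR-487a-5p, had 28, 21, 39, 31 and 54 reads in IMPA and 22, 12, 20, 17 and 12 in IMA, or 2506 ± 652 and 1541 ± 353 TPM. The groups overlapped, and its adjusted p was 0.0501 (-0.73 ± 0.20). circ_0006544 of CENPJ, a centriole protein, with miR-502b-5p, had 23, 34, 28, 24 and 40 reads against 15, 8, 12, 25 and 12 (-0.71 ± 0.22, adjusted p = 0.110).

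circ_0009678 of CEMIP, a hyaluronan-degrading protein, also carried miR-502b-5p and had 8, 12, 12, 3 and 6 reads in IMPA and 2, 2, 2, 0 and 3 in IMA, at least 2.30-fold lower in group means against the floor although the groups overlapped in TPM (-1.27 ± 0.39, adjusted p = 0.104). CIT, the citron kinase of cytokinesis, with miR-361-5p, was at 611 ± 363 TPM in IMPA and 162 ± 158 in IMA (-1.30 ± 0.41, adjusted p = 0.117). USP1, a deubiquitinase of DNA repair, with miR-374b-5p, was at 477 ± 210 and 90.6 ± 133 TPM, at least 1.78-fold lower in group means against the floor (fitted -1.33 ± 0.43, adjusted p = 0.128). The groups of CIT and of USP1 overlapped.

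The 5 with higher values were circ_0005511 of USP3, given above, and those of QKI, MDN1, AEBP2 and JCHAIN. circ_0005130 of QKI, the RNA-binding protein quaking, which is known to promote the formation of circRNAs, carried miR-545-3p and had 9, 12, 15, 11 and 12 reads in IMPA and 20, 11, 21, 15 and 18 in IMA. In TPM the groups did not overlap (880 ± 179 and 1577 ± 285 TPM, 0.69 ± 0.22, adjusted p = 0.133). circ_0004898 of MDN1, a ribosome assembly factor, with miR-216b, was at 236 ± 190 and 711 ± 195 TPM (1.07 ± 0.38, adjusted p = 0.175), also without overlap. circ_0002976 of AEBP2, a Polycomb cofactor, with miR-495-3p, was at 137 ± 127 and 488 ± 247 TPM, at least 2.06-fold higher in group means against the floor (fitted 1.08 ± 0.42, adjusted p = 0.215). circ_0003518 of JCHAIN, with miR-141 and miR-200a, was at 70.2 ± 99.6 and 348 ± 214 TPM, at least 1.48-fold higher (fitted 1.08 ± 0.43, adjusted p = 0.225). The groups of AEBP2 and of JCHAIN overlapped. None of the 5 passed the test.

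The members with the most junction-only miRNAs showed no difference between the stages beyond the spread. circ_0003673 of MAPK9 had 23, 17, 21, 23 and 15 reads in IMPA and 23, 12, 14, 19 and 15 in IMA, or 1483 ± 332 and 1563 ± 437 TPM (0.00 ± 0.20, adjusted p = 0.998). Its sign turned with the scaling, to -0.30 with clean reads as library sizes. circ_0010357 of MAPK14 had 4, 2, 2, 3 and 3 reads against 5, 0, 6, 0 and 4 (0.20 ± 0.42, adjusted p = 0.869). DCP2 (0.20 ± 0.30, adjusted p = 0.798), circ_0005388 of DDHD1 (0.34 ± 0.32, adjusted p = 0.680) and GDI2 (-0.54 ± 0.28, adjusted p = 0.393) did not pass either.

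A list of miRNAs known to act in fat cell formation was then set against the members by miRNA number. Letter and arm were ignored, so a counted miRNA can be the other strand of the one with the known role. For example, the paper cites miR-532-3p, which had 0 junction-only pairs, whereas miR-532-5p had 5. Of the 61 miRNA numbers listed, 53 occurred in the list of pairs and 41 had a junction-only pair, in 90 of the 257 members. Of the 89 tested, 0 rose and 0 fell at 0.01 by edgeR, 10 had an unadjusted p under 0.05 (11.2%, near the 13.3% of all circRNAs tested), and their median log2 fold change was -0.08. Those most abundant were USP3 with miR-144-3p and ZCCHC4 with miR-26a-5p and miR-26b-5p, above, then HTT, SUGT1, RRAS2 and MAPK9.

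circ_0003147 of HTT, the huntingtin gene, with miR-130b-5p, was at 2681 ± 521 TPM in IMPA and 2316 ± 576 in IMA (-0.26 ± 0.18, adjusted p = 0.544). circ_0006751 of SUGT1, a co-chaperone, with miR-130a-5p, was at 1751 ± 447 and 1696 ± 436 TPM (-0.11 ± 0.21, adjusted p = 0.853). circ_0007671 of RRAS2, a Ras-like GTPase, with miR-499-5p, was at 1294 ± 329 and 1871 ± 434 TPM (0.38 ± 0.21, adjusted p = 0.415). All overlapped between the groups.

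Among miRNAs of the listed numbers, whatever their arm, miR-26a-5p had 6 junction-only circRNAs, the most. miR-26b-5p and miR-532-5p had 5, and miR-130a-5p and miR-483 had 4. miR-16a-3p, miR-16b-3p, miR-200c and miR-320-3p had 3. Those with 2 were miR-103-5p, miR-125a-5p, miR-125b-5p, miR-140-3p, miR-144-3p, miR-145-3p, miR-15b-3p, miR-15b-5p, miR-16a-5p, miR-16b-5p, miR-181b-5p, miR-181c-5p, miR-181d, miR-199a-3p, miR-199b-3p, miR-199c-3p, miR-200a, miR-200b, miR-20a-3p, miR-21-5p, miR-22-5p, miR-221-5p, miR-335-3p, miR-378-5p and miR-671-5p. miR-27a-3p and miR-27b-3p, known to hold back PPARG, were among those with 1 junction-only circRNA, beside 12 junction pairs each. The others with 1 were miR-103-3p, miR-107-3p, miR-124a, miR-128-3p, miR-130b-5p, miR-145-5p, miR-146a, miR-146b-5p, miR-148a-3p, miR-148b-3p, miR-155-3p, miR-182, miR-183, miR-18b-5p, miR-196a, miR-196b, miR-197-3p, miR-22-3p, miR-24-3p, miR-26a-3p, miR-27b-5p, miR-29a-5p, miR-29c-5p, miR-30a-5p, miR-30e-5p, miR-335-5p, miR-363-5p, miR-365-3p, miR-455-3p, miR-455-5p, miR-499-3p and miR-499-5p.

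Host genes were grouped by 4 lists. Of 45 genes of extracellular matrix and adhesion, 17 had a circRNA in the table, and 8 circRNAs of them were members, those of ADAMTS9, CEMIP, COL5A1, ITGA4, ITGAV, ITGB1, LAMC1 and VCAN. Of these 8, 1 rose (COL5A1) and 0 fell at 0.01, beside 0.464% in each direction over all 1294 circRNAs tested. circ_0010030 of ADAMTS9, a matrix protease, with miR-148a-3p and miR-148b-3p, had 9, 9, 9, 8 and 16 reads in IMPA and 0, 5, 11, 10 and 12 in IMA (-0.12 ± 0.33, adjusted p = 0.896). circ_0003788 of VCAN was at 429 ± 105 and 611 ± 284 TPM (0.34 ± 0.33, adjusted p = 0.680).

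The list set up for striated muscle had 3 members, of FHOD3, STAC and PAX7, none past 0.01, with a median log2 fold change of 1.41. circ_0001102 of PAX7, the transcription factor of muscle satellite cells, with miR-125a-5p and miR-125b-5p, had 12, 11, 12, 14 and 19 reads in IMPA and 8, 8, 19, 10 and 18 in IMA (0.13 ± 0.25, adjusted p = 0.853). Over members and other circRNAs of this list, 4 of 15 rose at 0.01, beside 6 of all 1294 circRNAs tested. The 15 came from 7 genes, and the 6 included circ_0006499 and circ_0006511, both of LMO7. These circRNAs are therefore not independent of each other. The list was chosen with earlier results of these data known, and no test of the set was made. The marker circRNAs of striated muscle (MYBPC1, MYPN and PAX7, 3 of 12 marker genes) summed to 13 to 21 junction reads per IMPA library and 20 to 42 per IMA library. Those of MYBPC1 and MYPN were among the circRNAs that the study called higher on these same libraries. A higher sum in IMA is therefore no independent evidence. The PAX7 circle was not among them and did not differ beyond the spread. The part of muscle cells in the values of FHOD3 and STAC was not tested.

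Of the adipocyte markers 1 of 10 had a circRNA in the table, PLIN2, a lipid droplet protein, with 2 to 5 junction reads per IMPA library and 6 to 10 per IMA library, and FBN1 was the 1 of 10 in the preadipocyte and matrix list (11 to 22 and 12 to 23). No circRNA of the endothelial, immune or nerve markers was listed. circRNAs thus give little hold on the labelled cell type.

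Among the 58 genes of adipogenesis and lipid metabolism, 14 had a circRNA and 2 of those circRNAs were members. circ_0011005 of EBF3, a relative of the adipogenic factor EBF1, with miR-186-5p, was at 1181 ± 355 TPM in IMPA and 1203 ± 365 in IMA (-0.08 ± 0.24, adjusted p = 0.916). circ_0010613 of SMAD4, the common mediator of TGF-β and BMP signals, with miR-2411-3p and miR-328-3p, was at 804 ± 229 and 824 ± 212 TPM (-0.05 ± 0.27, adjusted p = 0.953). The signs of these small differences turned under some scalings.

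Of the 58 chromatin regulators, 19 had a circRNA and 3 of those circRNAs were members, with 0 past the threshold. circ_0001458 of ASH1L, a histone methyltransferase, with miR-1468-5p, was at 1028 ± 593 TPM in IMPA and 1423 ± 211 in IMA (0.35 ± 0.27, adjusted p = 0.597). SMARCC1 was at 472 ± 271 and 537 ± 250 TPM (0.08 ± 0.35, adjusted p = 0.940).

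The same loci were then read by their non-junction reads, those that lie at the circle's splice sites without a back-splice and so come mostly from the linear RNA. The authors list them only for libraries in which the circle was read, so the test was limited to the 690 circRNAs, 129 of them members, listed in all 10 libraries. Of the 129, 13 rose and 13 fell at an adjusted p under 0.01, or 10.1% each, beside 11.6% and 10.1% of all 690 (21.7% in both directions). The split depended on scaling: without TMM factors 7 members rose and 23 fell (48 and 106 of all 690), with uniquely mapped reads 7 and 21 (49 and 93 of all), and with clean reads 0 and 115 (3 and 592 of all), where the median log2 fold change of all loci moved from 0.00 to -0.64. Non-junction reads therefore give changes relative to the other circRNA loci.

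The largest fall among members was at EBF3, with 151, 140, 134, 156 and 170 non-junction reads in IMPA and 41, 36, 56, 49 and 50 in IMA. The groups were far apart, and the log2 fold change was -1.10 ± 0.11 (adjusted p = 4.75e-09), between -1.72 and -1.09 under the other scalings, the replicate block and 1 circRNA per host gene. The circle of the same locus had 23, 8, 18, 12 and 21 junction reads in IMPA and 7, 14, 17, 15 and 11 in IMA. Its circular share, in which each back-splice counts 2 times against the non-junction reads, had a mean of 17.6% in IMPA and 35.1% in IMA. Over the 129 members the library medians of this share ran from 9.33 to 10.9% in IMPA and from 9.95 to 12.4% in IMA.

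The member locus with the smallest p, picked after its values were seen, was USP47, a deubiquitinase gene. Its circ_0007658 carried miR-145-5p at the junction, and its non-junction reads lay between 330 and 426 in IMPA and 333 and 491 in IMA before scaling, with a log2 fold change of 0.80 ± 0.07 (adjusted p = 1.32e-10). With clean reads as library sizes it was 0.15 and not past the threshold (adjusted p = 0.149). Of the members named above, PABPC1 fell by 0.30 on the log2 scale (adjusted p = 0.00723) and RRAS2 by 0.24 (adjusted p = 0.00500) in non-junction reads, and SUGT1 rose by 0.27 (adjusted p = 0.00251), although with clean reads as library sizes its value was -0.38. With 1 library left out the adjusted p rose to as much as 0.0302 for PABPC1 (without IMPA4, and above 0.01 without IMPA1 or any 1 of the IMA libraries), 0.0285 for RRAS2 (without IMPA3, and above 0.01 without IMPA1, IMA3, IMA4 or IMA5) and 0.0117 for SUGT1 (without IMA2).

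Of the 26 members called in non-junction reads, 16 had a junction log2 fold change of the same sign, and over the 129 members in both tests 74 had. The 2 readouts share libraries, so no p-value is given. At PABPC1 the junction value was -0.73, which missed the threshold, and the non-junction value -0.30. At USP3 the junction value was 0.39 and the non-junction value -0.06 ± 0.10 (adjusted p = 0.658), with a mean circular share of 40.9% in IMPA and 54.2% in IMA.

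**Figure D5:**
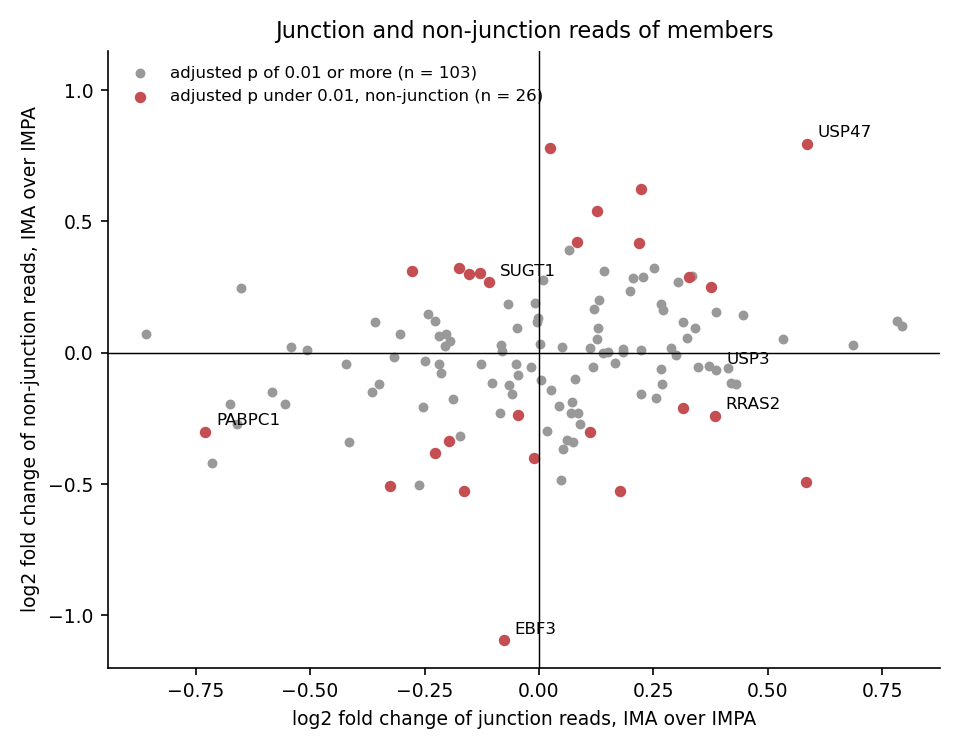
Log2 fold change of non-junction reads (vertical axis) against that of junction reads (horizontal axis), IMA over IMPA, for the 129 members read in all 10 libraries, with the 26 past an adjusted p of 0.01 in non-junction reads in red. EBF3 lies at -1.10 with a junction value near 0, and USP47 lies highest at 0.80.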

How the data were processed

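The authors mapped quality-filtered reads with HISAT2 and kept circRNAs that find_circ (at least 2 reads) and CIRI2 both placed at 1 location, with miRNA sites from miRanda and TargetFinder. Genome build, tool versions and the length of the junction sequence are not given in the sources used here, and coordinates are those of the files. The deposited counts are raw junction reads, and the deposited TPM are CPM without a length term. Tables of lengths, non-junction reads and pairs were used as deposited. Another 10 samples named in them were not used.

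For junction counts edgeR 4.0.16 (R 4.3.3) was used with TMM, glmQLFit, glmQLFTest, a prior count of 2, a count above 0 in at least 5 libraries and Benjamini-Hochberg at 0.01. Non-junction reads were planned with the same filter, but a library without junction reads has no entry, so only circRNAs listed in all 10 libraries were tested. Alternatives were DESeq2 1.42.0, limma 3.58.1 voom, other library sizes and filters, a replicate block and each library left out. DEGseq, the study's tool, was not used. On simulated junction counts of 1294 circRNAs, 75% of 200 changed 4-fold were recovered, and 100% of the 72 whose mean was 10 or more, with 1 false call. The simulation used the same dispersion for every circRNA and no zeros from dropped calls, so these shares need not hold for the real counts. Where a group had 3 reads or fewer in every library, folds are bounds against 3 reads per library. Floors cover counting error only, and a circRNA dropped in calling also counts 0.

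Named are members with an adjusted p under 0.05 or in the study's list, the next 5 by p in each direction, the 5 most abundant, the 5 with the most junction-only miRNAs, the 6 most abundant with an adipogenesis miRNA, and the 2 most abundant of each host list. Host symbols are those of the files, and 945 of 946 IDs matched RefSeq. Members and lists were chosen with earlier results of these data known. Residuals of libraries with the same replicate number correlated at -0.14 to 0.04, which gave no ground for pairing them. A primer sequence of 1 member is not reported here.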

Additional observations from a re-analysis of the deposited data

Results flagged for a closer look

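In 4 of the 66 groups of 5 libraries examined, over the 33 circRNAs named, 1 library lay far from the other 4. The rule flags about 1 in 20 groups of normally distributed values, a rate that need not hold for low counts. circ_0005870 of COL5A1 was at 209 TPM in IMPA3, which was 3 reads, and at 0 in the other IMPA libraries. A group with a single library above 0 is always flagged. circ_0003518 of JCHAIN, a gene of antibody-secreting cells, was at 718 TPM in IMA1 and between 199 and 320 in the other IMA libraries. circ_0007894 of AIDA was at 4400 TPM in IMA3, the others of IMA lying between 3278 and 3534. circ_0010613 of SMAD4 was at 1200.9 TPM in IMPA1 and between 613 and 766 in the other IMPA libraries.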

How the results depend on the processing

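The junction reads of 1 member rose and of 1 fell in the reported test. The number that rose was 2 with uniquely mapped reads as library sizes (COL5A1 and USP3, beside 8 of all), and 0 with filterByExpr, with a mean count of at least 10 and without IMA2 and IMA3, where COL5A1 was left untested. The number that fell was 4 with clean reads as library sizes (EEFSEC, ITGAV, CENPJ and PABPC1, beside 20 of all 1294), 2 with limma voom and at a threshold of 0.05 (EEFSEC and ITGAV), and 0 with DESeq2's Wald test, where the 1 that rose was USP3 and COL5A1 was given no adjusted p. With 1 library left out, 0 to 1 rose and 1 to 1 fell. The EEFSEC log2 fold change then ran from -2.20 to -1.53 (adjusted p of 5.73e-05 to 0.00607). Members called in non-junction reads (13 up, 13 down) numbered 7 up and 23 down without TMM (48 and 106 of all 690), 7 and 21 with uniquely mapped reads (49 and 93), 0 and 115 with clean reads (3 and 592), and 20 and 26 at 0.05 (18.4% and 17.2% of all). With 1 library left out they were 6 to 13 up (6 without IMA2) and 8 to 13 down (8 without IMPA1, IMPA3 or IMA5). The rule gave 30 circRNAs with at least 2 junction-only miRNAs of different number, chosen as an alternative after the data were seen, as were the removal of IMA2 and IMA3 together, the miRNA number and the listed ends. The median junction log2 fold change of all circRNAs was -0.32 with clean reads and 0.13 with uniquely mapped reads.

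Of 705 log2 fold changes of single circRNAs under these alternatives, 639 kept their direction and side of the threshold, 6 passed it, 19 no longer did and 41 turned sign. With clean reads they were -0.27 for ZCCHC4, -0.20 for AIDA, -0.30 for MAPK9, -0.067 for DCP2, -0.15 for PAX7, -0.17 for SMARCC1 and -0.38 for the non-junction reads of SUGT1. With uniquely mapped reads they were 0.20 for UBE3A, 0.12 for SUGT1, 0.086 for ADAMTS9, 0.17 for SMAD4 and 0.15 for EBF3. Without TMM they were 0.029 for UBE3A and 0.018 for SMAD4, without IMA2 and IMA3 0.015 and 0.083, with limma voom -0.35 for MAPK14, and for MAPK9 -0.0020 without a filter and -0.0021 with the replicate block. With 1 library left out, the signs of ZCCHC4 (-0.041 to 0.20), UBE3A (-0.11 to 0.019), MAPK9 (-0.12 to 0.12), SUGT1 (-0.24 to 0.0084), PAX7 (-0.027 to 0.26), ADAMTS9 (-0.32 to 0.16), SMARCC1 (-0.086 to 0.26), SMAD4 (-0.15 to 0.11) and EBF3 (-0.20 to 0.081) were not constant.

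The replicate numbers share only a number: with the replicate block 1 member rose and 1 fell in junction reads, and 14 rose and 16 fell in non-junction reads, while the adjusted p of ITGAV was 0.117. The seed alternatives and the search for seeds across the junction were not run, as no genome or miRNA sequence was used here. The causes of these differences were not tested. Few reads limit the junction test, since filterByExpr kept 64 members.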
